A study of Bos taurus with 20 samples.

Results

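FSHR and LHCGR code for the receptors of follicle-stimulating hormone (FSH) and luteinizing hormone (LH), and they were followed here in the cells of the bovine ovarian follicle. They were measured by all non-control probes of the array whose gene name, without the transcript number, was FSHR or LHCGR. These were 2 of the 22550 genes on the array and 8 of its 61325 non-control probes, 4 for each gene, and no filter on low values was applied to them. The samples were 20 arrays of follicles of 3–6 mm taken from bovine ovaries after slaughter, with 4 replicates of each of 5 groups. The groups were theca cells (TH), scraped from the follicle wall, granulosa cells (GC), separated from the punctured follicles, cumulus cells (CC) and oocytes (OO) of immature complexes, and cumulus cells after 4 h of in vitro maturation (CC-IVM). Breed, age, the number of animals in a replicate and what the maturation medium held for these arrays (FSH or another hormone) are not given in the sources used here. The study calls the replicates of TH, GC, CC and OO biological. Nothing says this of CC-IVM, so its p-values measure the spread between these samples.

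Both receptors are proteins with a large hormone-binding ectodomain and a membrane-spanning domain that couples mainly to the stimulatory G protein Gs, which raises cyclic AMP and activates protein kinase A. FSH acts on granulosa cells, where it drives proliferation, estradiol synthesis and follicle growth. LH acts on theca cells, where it drives androgen synthesis, and granulosa cells gain LHCGR late, when a follicle becomes dominant. Follicles of the size sampled here are small antral follicles. The arrays measured how the 2 receptor transcripts were distributed among the follicle's cells before that stage, and what happened to them in cumulus cells within hours of the start of maturation.

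Each probe was a 60-base oligonucleotide designed on the bovine assembly UMD 3.1, on which both genes lie on chromosome 11. FSHR-201 (ENSBTAT00000056513, RefSeq NM_174061) spans chr11:31110744-31305197 and FSHR-202 (ENSBTAT00000045992) spans chr11:31129534-31305140, so the FSHR-201 model reaches 18790 bases further at its low end and 57 bases further at its high end. LHCGR-201 (ENSBTAT00000022047, NM_174381) spans chr11:30823435-30887992 and LHCGR-202 (ENSBTAT00000022049) spans chr11:30823435-30888003, a difference of 11 bases. These are the spans of the transcript models as the files give them. The position of a probe within its transcript (coding exon or untranslated region) and the strand of the models are not given in the sources used here. The 8 probes held 6 distinct sequences, shown here by their opening 30 bases, from the 5′ end, because the results turn on which probes are alike. No base is set in capitals, since no motif was searched.
FSHR-201 probe 1: aatatgccatggaagagctgacagagcact
FSHR-201 probe 2: ggcacatccataaggtaaattggtcagaaa
FSHR-202 probe 1: tatggataagaaaggcaaggccatgggact
FSHR-202 probe 2: gtgtggcggagcagaaattctattaatgat
LHCGR probe 1 (under LHCGR-201 and LHCGR-202): ccagtaatattaacaaagagttggtttcag
LHCGR probe 2 (under LHCGR-201 and LHCGR-202): gactctctacctagctcaaaatgtggtcca
The 4 FSHR probes were different sequences, and no pair of the distinct sequences shared a run of over 8 bases. The LHCGR-201 and LHCGR-202 probes were the same sequences spotted again, so they are repeat measurements and cannot tell the LHCGR transcripts apart. GC content was between 35% and 45%.

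Levels are given as log2 of the processed signal relative to the 75th percentile of the same array, so a level of 0 is the signal at that percentile and a difference of 1 is a doubling. A probe counts as detected where the scanner software marked it well above background. The share of probes so marked was 54.2% to 68.8% on 19 arrays and 49.3% on oocyte replicate 2, whose lowest detected level, −4.02, was the highest of all arrays. Summed marker signals followed the labels, though a sum mostly reflects its brightest genes. Within the granulosa and cumulus list, FOXL2 was not called between GC and TH (log2 difference 0.62). The summed linear signal of 5 theca markers was 575 to 831 times the 75th percentile in TH and at most 115 in any other group, 5 granulosa and cumulus markers reached 131 to 799 in GC, CC and CC-IVM against 23.4 to 44.1 in TH and 2.65 to 3.4 in OO, and 6 oocyte markers reached 248 to 330 in OO against at most 3 elsewhere. The replicates 1 and 2 of TH, GC, CC and OO were on a first slide and their replicates 3 and 4 on a second, while all 4 CC-IVM arrays were on a slide of their own.

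FSHR was high in both compartments of the granulosa lineage, low but detected in TH, and at or under background in the oocyte. All 4 probes gave the same order. In GC, the level of FSHR-201 probe 1 was 2.35, 1.17, 2.34 and 2.06 in replicates 1 to 4. In CC it was 2.27, 1.78, 2.15 and 2.14, and in TH it was −4.26, −3.24, −4.00 and −2.92. The GC and CC arrays thus interleaved, and every TH array lay far below them. FSHR-202 probe 1 read 3.1, 2.33, 2.43 and 2.23 in GC and 2.77, 2.75, 2.90 and 3.31 in CC. In TH it read −3.43, −2.67, −3.70 and −2.30. The other probes of the pairs, FSHR-201 probe 2 and FSHR-202 probe 2, ranged from 1.26 to 2.71 in GC, from 1.60 to 2.61 in CC and from −4.88 to −2.19 in TH. All 4 probes were detected on all 12 of these arrays.

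The difference between GC and TH was 5.23 to 5.59 over the 4 FSHR probes (standard errors 0.33 to 0.46), or 37.6- to 48.1-fold. It passed the test for 4 of 4 probes, where 23.8% of all probes did (limma adjusted p at most 9.1e-07). CC exceeded TH by 5.52 to 5.96, or 45.8- to 62.2-fold, for 4 of 4 probes, against 29.2% of all probes. In these bulk samples, fewer cells of a type and less RNA per cell cannot be told apart. Between CC and GC, 0 of the 4 probes passed the test, where 8.96% of all probes did. The CC minus GC differences were 0.10 (95% interval −0.71 to 0.92) and 0.13 (−0.58 to 0.84) for FSHR-201, and 0.41 (−0.30 to 1.12) and 0.31 (−0.67 to 1.29) for FSHR-202. A difference of about a doubling between mural granulosa and cumulus cells therefore stays within the interval for some of the probes.

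**Figure D1:**
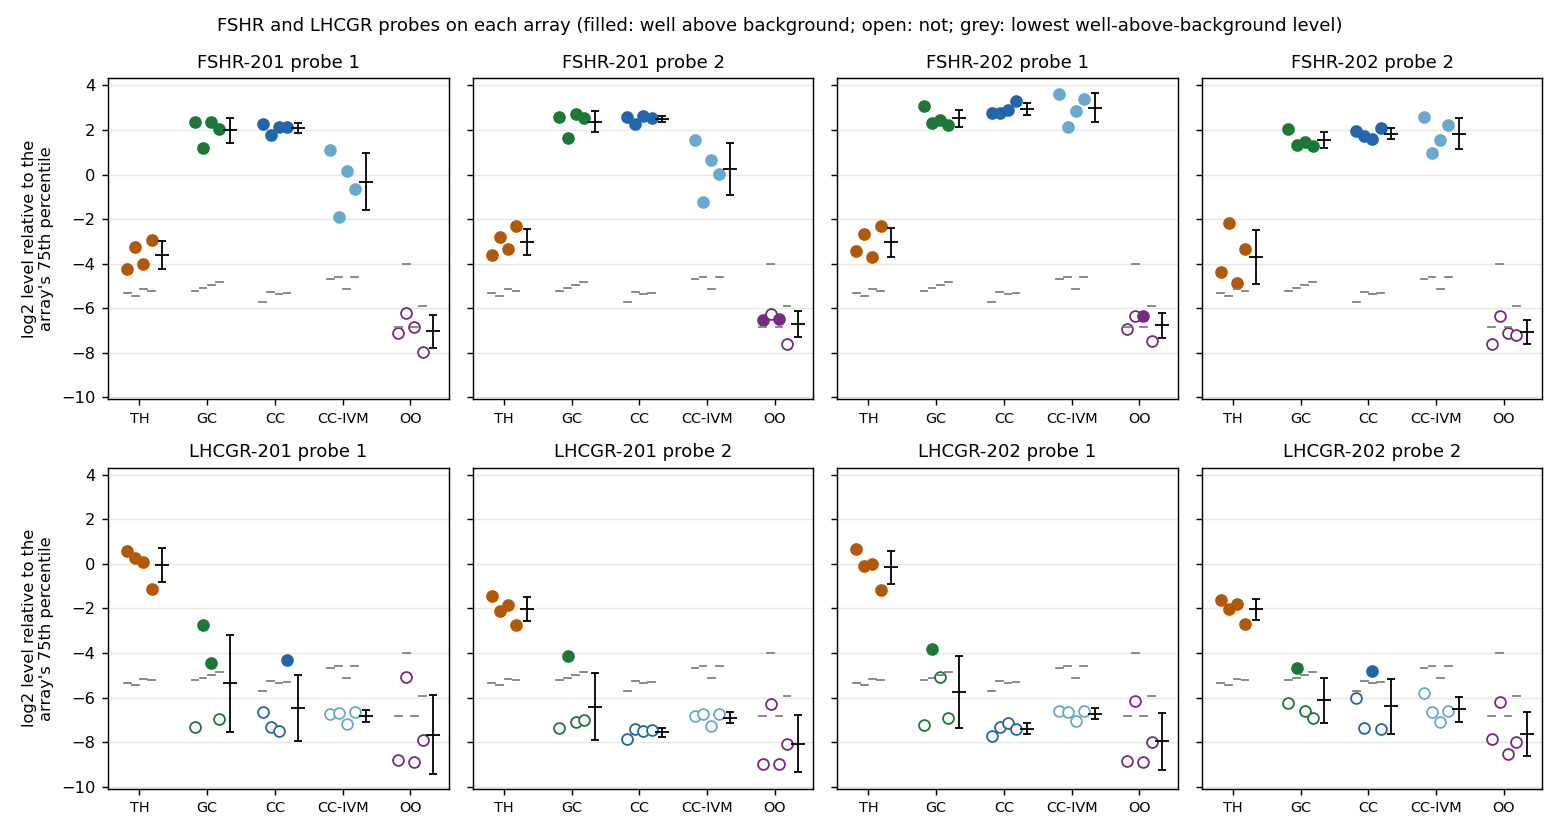
Level of each FSHR probe (upper row) and LHCGR probe (lower row) on the 20 arrays, as log2 relative to the array's 75th percentile, with filled points for arrays on which the probe was well above background, open points for the others, grey dashes for the lowest detected level of each array, and bars for the mean ± SD of 4 arrays. FSHR was detected on all TH, GC, CC and CC-IVM arrays, and LHCGR on all 4 TH arrays and on few others.

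Granulosa marker genes were also detected in TH. The summed granulosa and cumulus markers were 33.5, 26.2, 23.4 and 44.1 in TH replicates 1 to 4, against 234, 137, 131 and 489 in GC, and 4 of these 5 markers were detected on all TH arrays. The order of the TH arrays by these sums was not that of FSHR. Replicate 4 had the highest sum and the highest level of 3 of the 4 FSHR probes, but replicate 1, with the next highest sum, was the lowest on both FSHR-201 probes, and replicate 2, with a sum of 26.2, was the highest or next highest on all 4. Whether granulosa cells in the scraped theca layer carried the TH signal was not tested.

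In the oocyte, FSHR-201 probe 1 and FSHR-202 probe 2 were detected on 0 of 4 arrays, FSHR-202 probe 1 on 1 and FSHR-201 probe 2 on 2. The levels of FSHR-201 probe 2 were −6.53, −6.28, −6.48 and −7.59, so even the detected ones were more than 2 units under the lowest TH array. The oocyte was therefore given a bound. FSHR was at least 173- to 315-fold lower in OO than in GC and at least 214- to 419-fold lower than in CC. Against TH it was at least 4.6- to 6.72-fold lower. All 4 probes passed the test in each comparison, where 63.7%, 60.4% and 61.0% of all probes did. Over TH, GC, CC and OO together, all 8 receptor probes passed the F-test of limma, as did 67.5% of all probes. The order for FSHR was thus CC and GC, which did not differ beyond their spread, then TH, then OO.

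LHCGR was highest in the theca layer. It was detected by all 4 spots on all 4 TH arrays, and its levels in the other groups were mostly under background. In TH, probe 1 read 0.59, 0.26, 0.07 and −1.13 under LHCGR-201. Its copy under LHCGR-202 read 0.67, −0.10, −0.02 and −1.18. Probe 2 read −1.46, −2.10, −1.84 and −2.74, and its copy −1.60, −2.04, −1.82 and −2.69. Replicate 4 was the lowest TH array on all 4 spots, and the theca marker sums of replicates 1 to 4 were 831, 631, 776 and 575. The copies differed by at most 0.36 on TH arrays, which is close to the 95th percentile of the difference between detected spots of 1 sequence on these arrays, 0.38.

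In GC, only replicate 2 carried LHCGR on all 4 spots. Its levels there were −2.72 and −3.80 for the copies of probe 1 and −4.15 and −4.66 for those of probe 2. Replicate 3 was detected on 1 spot of 4, at −4.45, while the copy of the same sequence read −5.07 and was not. Replicates 1 and 4 were not detected on any spot. The replicates with signal were those with the most theca marker signal among GC arrays, whose sums were 29.8, 115, 100 and 34.2 in replicates 1 to 4. Their granulosa marker sums, 137 and 131, were also the lowest of the GC arrays. The part of theca cells in this signal was not tested.

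In CC, 2 spots were detected, each on 1 array and each against its own copy. LHCGR-201 probe 1 read −4.33 on CC replicate 4, where the identical LHCGR-202 spot read −7.40, and the processed signals were 32.7 and 3.9. LHCGR-202 probe 2 read −4.81 on replicate 3, where its copy read −7.51, with signals of 19.7 and 3.04. On the whole array, 9317 sequences were spotted on 2 places, and in 3.85% of the 186340 spot pairs over 20 arrays 1 spot was detected and the other not. For LHCGR this held for 3 of 40 pairs. On those CC arrays the copies thus did not repeat the signal. On CC-IVM and OO arrays no LHCGR spot was detected.

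**Figure D2:**
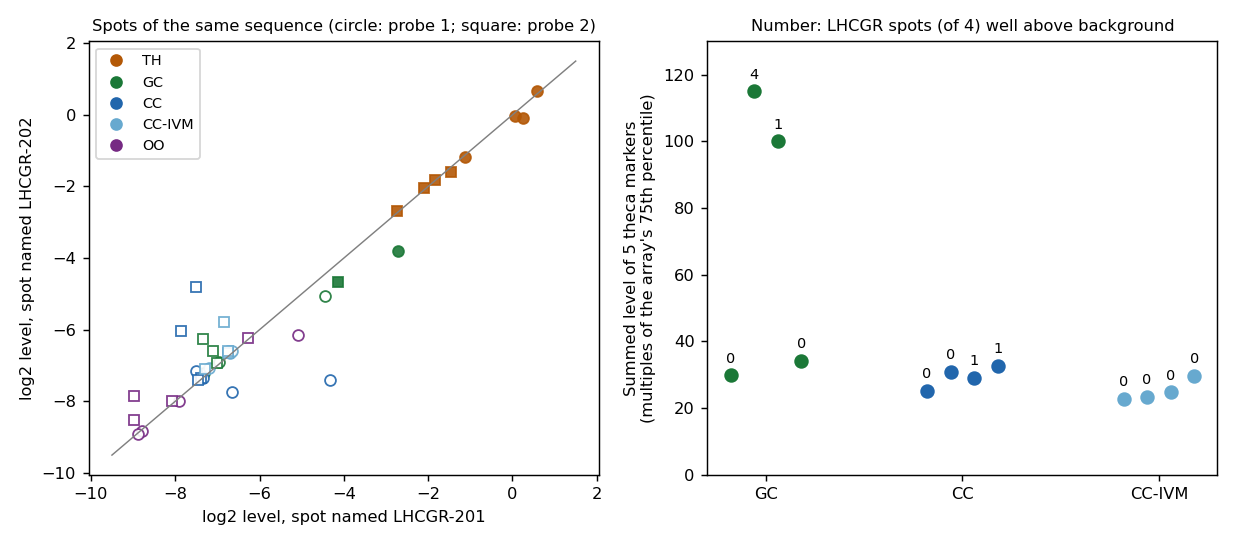
Left: log2 level (relative to the array's 75th percentile) of each LHCGR spot named LHCGR-202 against the spot of the same sequence named LHCGR-201, with circles for probe 1, squares for probe 2, points filled where both spots were detected and a line of equal values. Right: summed signal of 5 theca markers (in multiples of the array's 75th percentile) on each GC, CC and CC-IVM array, with the number of LHCGR spots of 4 detected there. The TH spots lie on the line, and GC replicates 2 and 3, with sums of 115 and 100, are the GC arrays on which LHCGR was detected.

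LHCGR was at least 6.76- to 23.4-fold lower in GC than in TH over the 4 spots, all of which passed the test (23.8% of all probes). It was at least 9.44- to 38.1-fold lower in CC (29.2%) and at least 14.6- to 57.6-fold lower in OO (61.0%), again for 4 of 4 spots each. Without GC replicate 2, the GC minus TH difference of LHCGR-201 probe 1 went from −5.31 to −6.19, and it was −4.66 without GC replicate 1. The 2 distinct sequences gave calls in each of these comparisons when their copies were averaged. Among GC, CC and OO no group was detected on all arrays, so no fold is given. Between CC and GC, and between OO and CC, no spot passed the test. OO and GC differed on 3 of 4 spots, by −1.53 to −2.23, where 63.7% of all probes passed. This was 0 spots without GC replicate 2 and 1 spot without CC replicate 1, OO replicate 1, 3 or 4, or TH replicate 2 or 3. Neither OO nor GC was detected on all arrays, so the sign of these differences has no reading. The order for LHCGR was TH first, with the other groups at or near background.

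The contrast between the receptors was also read within each array, where scaling between arrays cancels. This value is a difference between probes of different sequence, so only its change between groups has a meaning. The log2 of FSHR minus that of LHCGR, each as the median over 4 spots, was −3.50, −1.67, −2.93 and −0.68 in TH. It was 9.73, 5.47, 8.22 and 9.09 in GC and 9.61, 9.38, 9.70 and 9.74 in CC. No GC or CC array came near a TH array, and GC replicate 2 was the lowest of its group. GC exceeded TH by 10.32 (SD 1.88 and 1.27, n = 4 and 4, two-sided exact permutation p = 0.0286, the smallest this design allows, and 0.0381 after adjustment over the 4 pairs compared). CC exceeded TH by 11.81, with the same exact p-values. CC and GC differed by 1.48, which did not pass the exact permutation test (p = 0.114). LHCGR was mostly under background in both of these groups, so its term there is no measured level. With LHCGR set no lower than the lowest detected level of each array, the differences from TH were 9.07 and 9.90, and CC exceeded GC by 0.83.

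After 4 h of maturation the FSHR probes parted. Both FSHR-201 probes fell, and both FSHR-202 probes stayed near their level in immature CC. FSHR-201 probe 1 read 1.11, −1.90, 0.14 and −0.63 on the 4 CC-IVM arrays, and FSHR-201 probe 2 read 1.56, −1.23, 0.66 and 0.03. All of these lay under the lowest CC array (1.78 and 2.29). On the same arrays FSHR-202 probe 1 read 3.61, 2.13, 2.86 and 3.40, and probe 2 read 2.57, 0.99, 1.55 and 2.22, on both sides of the CC values. Replicate 2 was the lowest CC-IVM array on all 4 probes. All 4 probes were detected on all 8 arrays.

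FSHR-201 was lower in CC-IVM than in CC by 5.3-fold on probe 1 (log2 difference −2.41 ± 0.55 SE, 95% interval −3.66 to −1.15, limma adjusted p = 0.011) and by 4.75-fold on probe 2 (−2.25 ± 0.51, −3.41 to −1.09, limma adjusted p = 0.01). FSHR-202 differed by 0.07 (−0.69 to 0.82, limma adjusted p = 0.89) and −0.01 (−0.79 to 0.76, 0.98). In this comparison 45.6% of all probes passed the test, 30.6% higher and 15% lower after maturation, with a median difference of 0.39 over all probes. Under 3 other scalings of the same signal the FSHR-201 differences ranged from −2.51 to −2.38 and from −2.35 to −2.22, and those of FSHR-202 from −0.11 to 0.09. In the deposited table they were −0.36 and −0.41 for FSHR-202, not called. Maturation and slide cannot be told apart, because the CC-IVM arrays shared a slide that held no other group. Marker genes also differed between these groups. Of the 5 granulosa and cumulus markers, AMH was 2.05-fold lower in CC-IVM, CYP19A1 2.39-fold and FOXL2 at least 4.68-fold, while INHBA, the brightest, was 2.1-fold higher and HSD17B1 differed by −0.89 and was not called. Of the 6 oocyte markers, 4 were lower in CC-IVM, by at least 6.9-fold for ZP4, and their summed signal was 0.561 to 3 in CC and 0.161 to 0.56 in CC-IVM. Of the 6 leukocyte and blood markers, 4 were called higher, CD14 by 5.02-fold and CD68 by 4.44-fold, and the other two, HBB and PTPRC, with neither group detected on all arrays. PTPRC, which defines leukocytes, was detected on no CC or CC-IVM array. The summed signal of this list was 24.9 to 47.9 in CC and 30.1 to 46 in CC-IVM. HBA was by far the brightest gene of the list, at 5.22 in CC and 5.20 in CC-IVM. The sum thus mostly reflects HBA and does not register CD14 or CD68. The part of these differences in the fall of FSHR-201 was not tested.

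The gap between the FSHR probe pairs was then taken within each array, a comparison chosen after these values were seen. The mean of the FSHR-202 probes minus that of the FSHR-201 probes was −0.06, 0.20, −0.13 and 0.37 in CC and 1.75, 3.13, 1.81 and 3.11 in CC-IVM. It was 0.03, 0.59, −0.63 and −0.21 in TH and 0.10, 0.42, −0.57 and −0.56 in GC. The CC-IVM arrays thus stood above the arrays of every other group, which lay around 0. CC-IVM exceeded CC by 2.35 ± 0.37 SE. Over the 701 genes with probes for 2 transcripts numbered like these, this passed the test (limma adjusted p = 0.0056), as 14.3% of these genes did, and it ranked 13th by size. Among the 128 genes whose probes were all detected on the 8 arrays, 10.2% passed and FSHR had the largest difference (limma adjusted p = 0.0082). By the exact permutation test, CC-IVM differed from each of CC, GC and TH with p = 0.0286, the smallest the design allows, which was 0.0571 after adjustment over 6 pairs. No pair among TH, GC and CC passed this exact test (adjusted p of 0.6 or more).

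**Figure D3:**
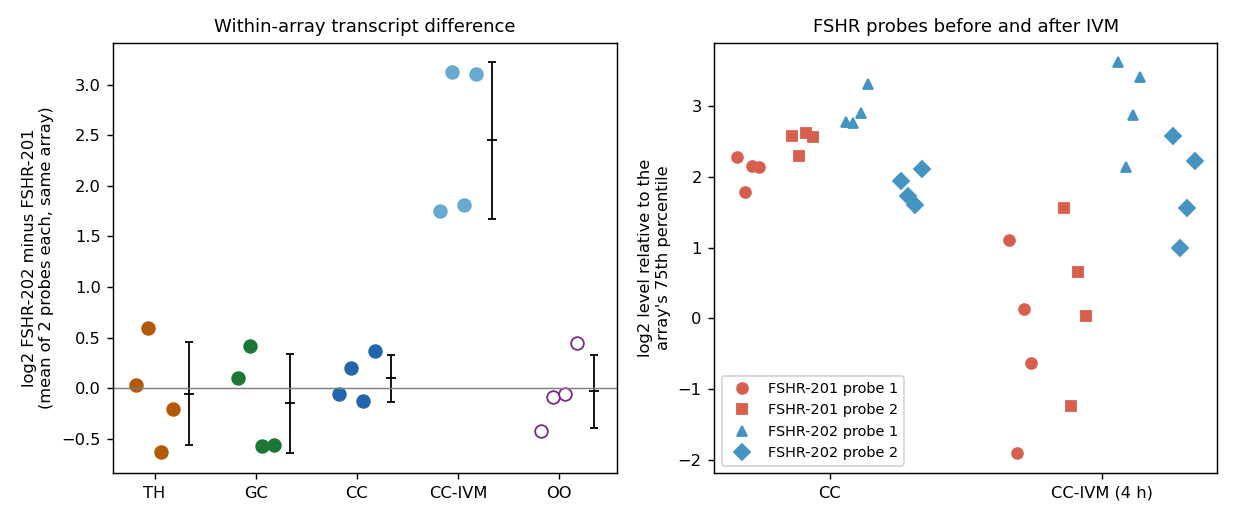
Left: log2 of FSHR-202 minus FSHR-201 within each array (mean of 2 probes each), with bars for the mean ± SD of 4 arrays and open points for OO, where the probes were mostly under background. Right: log2 level of each FSHR probe (relative to the array's 75th percentile) on the CC and CC-IVM arrays. The CC-IVM arrays lie between 1.75 and 3.13 in the left panel, and the FSHR-201 probes are the ones that are lower after maturation in the right panel.

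Against GC, CC-IVM was lower on FSHR-201 (−2.30 ± 0.51 SE, limma adjusted p = 0.0019, and −2.12 ± 0.46 SE, 0.0016), and its FSHR-202 differences of 0.48 and 0.30 did not pass (2 of 4 probes, against 26.8% of all probes). Against TH, CC-IVM stayed higher on 4 of 4 probes, by 3.27 and 3.28 for FSHR-201 and by 5.53 and 6.02 for FSHR-202 (42.0% of all probes passed). OO was at least 47.8- to 438-fold lower than CC-IVM on the 4 probes (76.7%). The place of CC-IVM in the order thus depended on the probe pair. It stood between GC and TH on FSHR-201 and with CC and GC on FSHR-202.

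LHCGR showed no detected signal in CC-IVM. It was at least 6.53- to 25.8-fold lower than in TH on 4 of 4 spots. Against CC, 2 of 4 spots were called higher, LHCGR-201 probe 2 by 0.65 and LHCGR-202 probe 1 by 0.68, while the spots of the same sequences under the other transcript name differed by −0.13 and −0.37 and were not called. Neither group was detected on all arrays, so no fold is given, and with copies averaged neither of the 2 sequences was called. Within arrays, FSHR minus LHCGR was 8.74, 6.55, 8.25 and 7.75 in CC-IVM, lower than in CC by 1.79, and by 1.92 with LHCGR at the lowest detected level. LHCGR was under background on nearly all of these spots, so its term is no measured level. This pair was 1 of the 4 in the exact permutation test (adjusted p = 0.0381), but the result is not read as a change in the receptors. The FSHR minus LHCGR value also takes the median over both FSHR probe pairs, and with the brightest probe of each gene (FSHR-202 probe 1) it was 0.43 higher instead.

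**Figure D4:**
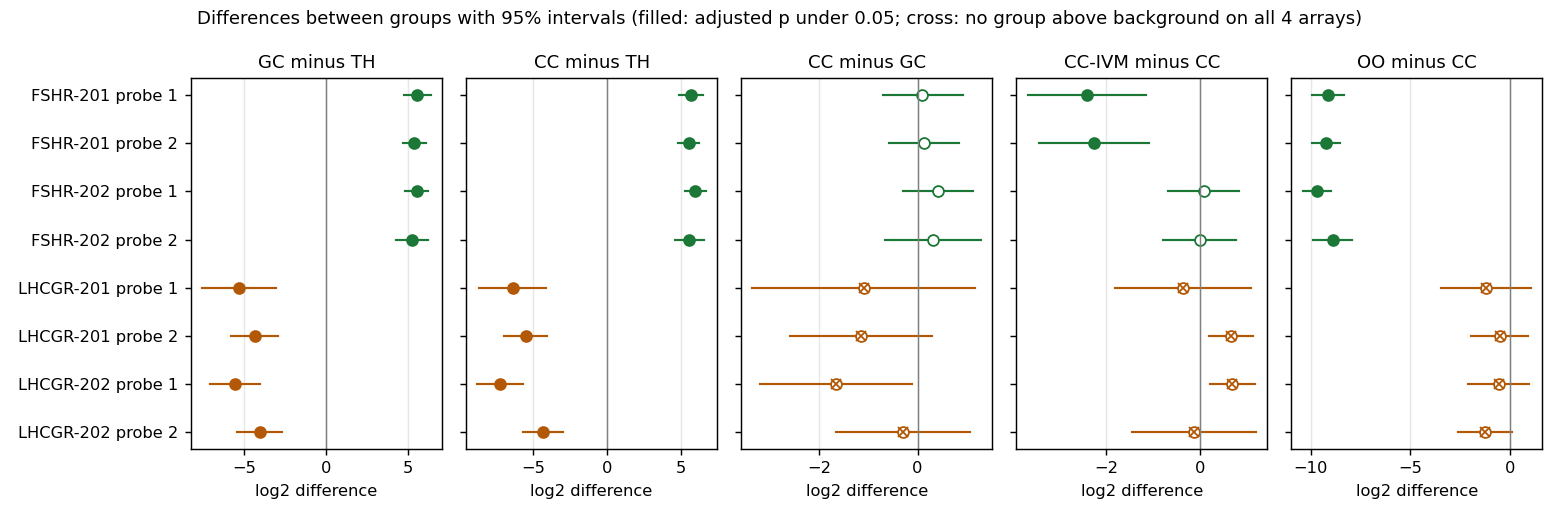
Log2 difference between groups for each FSHR and LHCGR probe in 5 comparisons, with 95% intervals from limma. Filled points mark an adjusted p under 0.05 where a group was detected on all 4 arrays. Open points with crosses mark, whatever the p, probes for which neither group was detected on all 4 arrays. The sign of those has no reading. FSHR and LHCGR lie on opposite sides of 0 in the comparisons with TH, and in CC-IVM minus CC the FSHR-201 probes lie under 0 while the FSHR-202 intervals hold 0.

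The genes around the receptors were read from 8 lists that held 96 distinct genes found on the array, with each gene taken at the median of its spots. For these gene-level values, 26.3% of the 22550 genes passed the test between GC and TH (14.5% higher in GC, 11.8% lower) and 45.8% between CC-IVM and CC (30.3% higher, 15.5% lower). Between CC and GC 9.88% passed, and between OO and CC 63.7%. The lists were drawn up with earlier results of these data known, and their counts are given beside these shares as descriptions.

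Of the pituitary hormone subunits CGA, FSHB, LHB and TSHB, FSHB was the one detected on all arrays of a cumulus group. Its level was −6.69 ± 0.99 (SD, n = 4) in GC with no array detected, −3.04 ± 0.50 in CC and −1.15 ± 0.65 in CC-IVM, both detected on 4 of 4 arrays. FSHB was at least 3.98-fold higher in CC than in GC and 3.71-fold higher in CC-IVM than in CC (limma adjusted p = 1.2e-04 and 0.0031). CGA, the alpha subunit shared by FSH and LH, was detected on all arrays in OO at −4.02 ± 0.17 and on none in CC. LHB was lower in GC than in TH by at least 1.44-fold. TSHB was called higher in CC-IVM than in CC with no array of either group detected. Of the 8 related receptors, RXFP2 and PRLR were lower in GC than in TH, by at least 5.18- and 1.76-fold. These were 2 calls, and 1 without GC replicate 2, GC replicate 4 or TH replicate 1. LGR5, a receptor of R-spondins in the same leucine-rich family as the gonadotropin receptors, was at least 5.1-fold higher in CC-IVM than in CC, with all CC-IVM arrays and no CC array detected.

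Of the 22 genes of Gs, cyclic AMP and protein kinase A signalling, 3 were higher and 8 lower in GC than in TH, 1 of the higher (ADCY9) with no array of either group detected. ADCY4, an adenylyl cyclase, was 44.1-fold lower in GC and ADCY2 at least 2.72-fold lower. RAPGEF3 and RAPGEF4, which code for the cyclic AMP-activated exchange factors EPAC1 and EPAC2, were 16.4-fold and at least 7.05-fold lower. After maturation 5 were called higher and 4 lower than in CC, but for 3 of the higher (ADCY5, PRKAR1B and RAPGEF4) and 1 of the lower (ADCY3) neither group was detected on all arrays, so the sign has no reading. CREM, a transcription factor of the cyclic AMP response, was 19.1-fold higher (4.25 ± 0.30 SE). ADCY6 was 9.75-fold lower and RAPGEF3 at least 5.22-fold lower. GNAS, the Gs alpha subunit to which both receptors couple, was 1.61-fold higher in GC than in TH.

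The list for receptor desensitization and trafficking had 14 measured genes, among them MVK, which codes for a metabolic enzyme. Of the 14, 1 was higher and 3 were lower in GC than in TH. These 4 calls were 2 without CC replicate 4, GC replicate 1, GC replicate 3, OO replicate 4 or TH replicate 1. GRK5, a kinase that phosphorylates activated G protein-coupled receptors, was 9.38-fold lower in GC than in TH. It was 49.6-fold higher in CC-IVM than in CC, the largest change of this list (−4.38 ± 0.11 in CC and 1.25 ± 0.21 in CC-IVM, SD, n = 4 each). ARRB2, an arrestin that binds phosphorylated receptors, was 3.53-fold lower after maturation and APPL2, an endosomal adaptor, 2.81-fold lower. Of the 14, 3 were called higher and 3 lower after maturation, 1 of the higher (ADRBK2) with no array of either group detected. ADRBK1 and ADRBK2 are the older symbols of the receptor kinases GRK2 and GRK3. ADRBK1 was detected on all arrays, at −3.60 in CC and −3.83 in CC-IVM.

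Of the 15 genes known as regulators of the receptor genes, 3 were higher and 3 lower in GC than in TH. NR5A2, a nuclear receptor of granulosa cells, was at least 36.8-fold higher in GC, where FSHR was high. TCF21 was 33.1-fold lower in GC than in TH, NR2F2 10.3-fold and NR2F1 5.28-fold, where LHCGR was low. NR2F1 and NR2F2 code for the COUP transcription factors, known as repressors of the LHCGR promoter. After maturation 3 of the 15 were higher and 7 lower than in CC. FOXL2, a granulosa transcription factor, was at least 4.68-fold lower and was detected on no CC-IVM array. NR5A2 was 8.97-fold lower, GATA4 6.55-fold and NR2F6 3.67-fold. In OO, GATA4 was 168-fold lower than in CC and NR5A2 at least 114-fold.

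Genes known to respond to FSH or LH were then compared between the cells in which each receptor was high. Of 13 measured genes that FSH raises in granulosa cells, 10 were higher and 2 lower in GC than in TH, with a median difference of 2.10 against 0.22 over all genes. Among them CYP19A1, the aromatase of estradiol synthesis, was at least 17-fold higher, FST (follistatin) 11.7-fold and INHBB, an inhibin and activin subunit, at least 3.35-fold. Of 9 genes that LH raises in theca cells, none was higher and 6 were lower in GC than in TH, with a median of −2.24. CYP17A1, the enzyme of androgen synthesis, was at least 28.1-fold lower in GC, INSL3, a theca hormone, 8.76-fold, FDX1 5.13-fold and STAR, which carries cholesterol into mitochondria, 4.82-fold. CYP11A1 and SCARB1, of cholesterol cleavage and uptake, stand in both of these lists and are the 2 of the FSH list that were lower in GC. Between CC and GC, 3 of the 13 were higher in CC (INHBB, CCND2 and HSD17B1), a count that was 0 or 1 without any one CC array or GC replicate 1, 2 or 3, and 7 without GC replicate 4.

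Of 15 genes known to respond to the LH surge, 8 were higher and 4 lower in CC-IVM than in CC. The 4 lower were FOS (5.6-fold), PTGES (5.33-fold), EGR1 (2.46-fold) and BTC (2.16-fold). HAS2, which makes the hyaluronan of the expanding cumulus, was at least 160-fold higher. ADAMTS1, a protease of the matrix, was 45.5-fold higher (0.20 ± 0.46 in CC, 5.71 ± 0.56 in CC-IVM, SD, n = 4 each). AREG and EREG, epidermal growth factor-like ligands, were at least 15.4- and 8.12-fold higher. LHCGR itself was detected on no CC-IVM array. Of the FSH list, 6 were higher and 3 lower after maturation, among them GREM1 at 7.4-fold and PAPPA at least 5.32-fold higher and NR5A2 lower. Of the theca list, 5 were higher and 2 lower, with SCARB1 3.19-fold higher and FDXR 3.95-fold lower. These comparisons share the slide of the CC-IVM arrays.

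**Figure D5:**
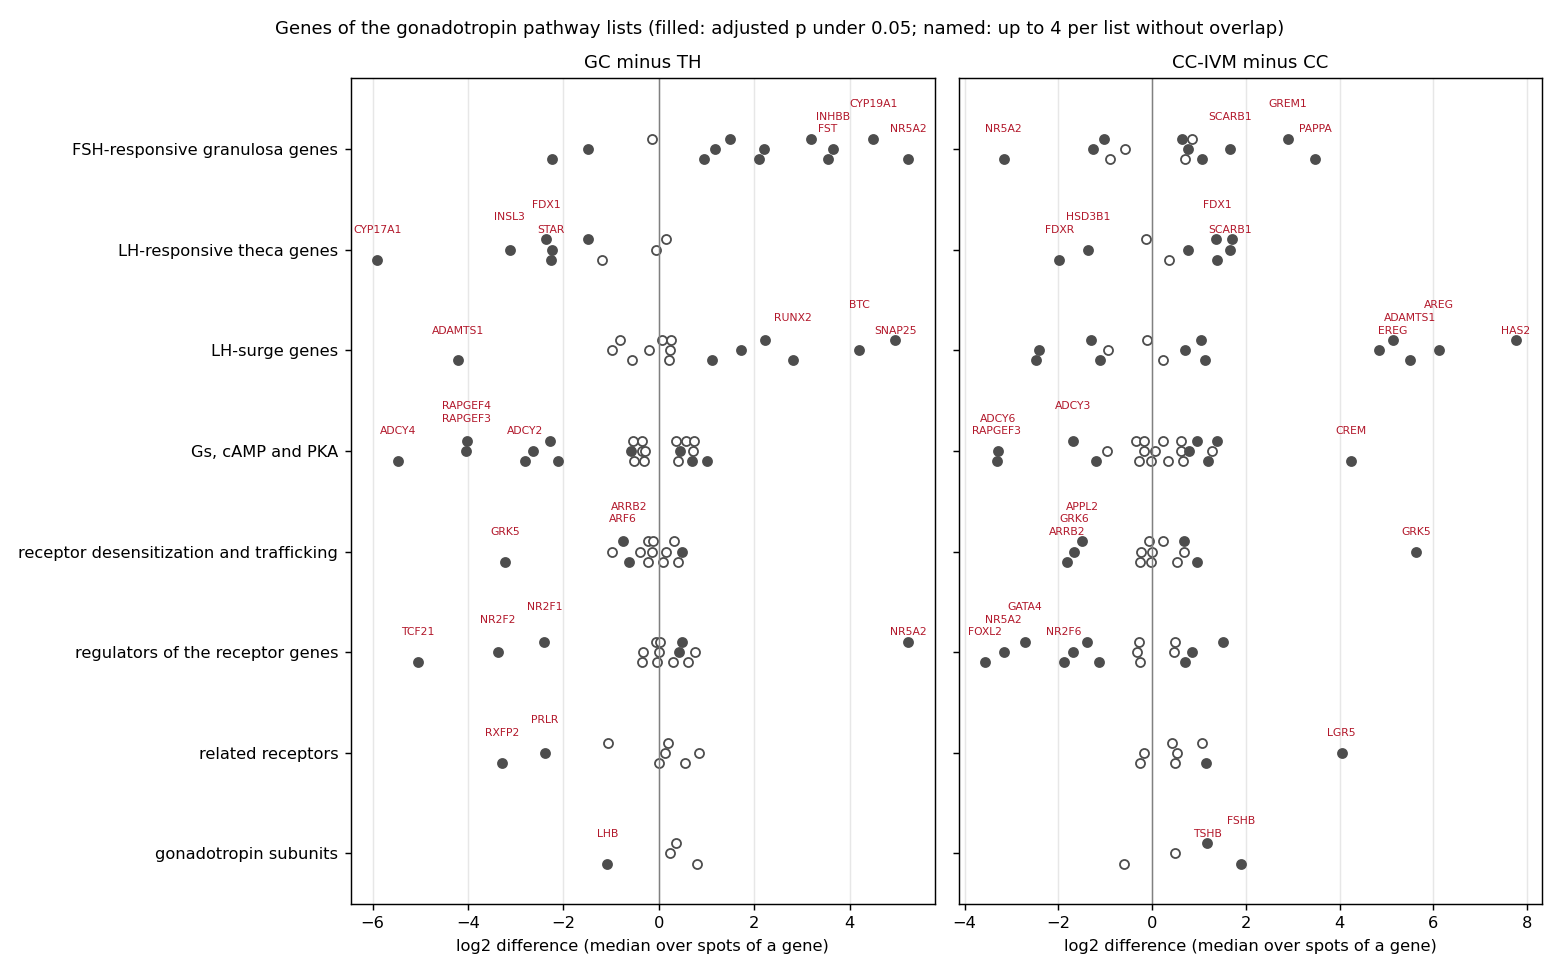
Log2 difference of each gene of the 8 gonadotropin lists between GC and TH (left) and between CC-IVM and CC (right), as the median over spots of a gene, filled where the limma adjusted p was under 0.05, with the names of up to 4 genes for each list whose groups did not overlap. NR5A2 at 5.23 and CYP17A1 at −5.90 mark the ends of the left panel, and HAS2 at 7.76 the right end of the other.

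The genes whose levels ran most like each receptor over the 20 arrays were ranked by Pearson correlation with its brightest probe, among 14152 genes detected on all arrays of at least 1 group. The arrays fall into the same 5 groups, so these values mostly reflect group means and are given as a description. For FSHR-202 probe 1 they were SERPINE2 (r = 0.991), SRGN (0.988), STRA6 (0.987), SUSD4 (0.986) and LRRC2 (0.984). The FSHR-201 probes, which were lower in CC-IVM than in CC, were not used for this ranking. SERPINE2, a secreted protease inhibitor, had mean levels of 3.76 in GC, 3.70 in CC and 3.90 in CC-IVM, against 0.74 in TH and −1.17 in OO. SRGN (serglycin, a proteoglycan of secretory granules) and STRA6 (a receptor for retinol uptake) also had their highest mean levels in these groups. SUSD4 had 2.91, 3.73 and 2.31, against −2.52 and −5.41. For LHCGR-201 probe 1 they were CD93 (0.968), CD300LG (0.967), OMD (0.963), COL6A3 (0.962) and SMIM5 (0.961). CD93, a surface receptor of endothelial and myeloid cells, had a mean level of 2.52 in TH and −4.48 in GC and was at −6.84 or lower in CC, CC-IVM and OO. COL6A3, a collagen VI chain, had −1.21 in TH and −5.79 in GC. The summed signal of 5 endothelial markers was 2.71 to 5.59 in TH, 2.91 to 4.43 in OO and at most 0.586 in GC, CC and CC-IVM. How much of the likeness comes from the makeup of the theca layer was not tested.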

How the data were processed

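The arrays were custom 60K Agilent arrays hybridized in 1 colour with Cy3. For the 20 arrays the authors deposited Feature Extraction tables (version 10.7.3.1) with the intensity of each spot as mean, median, background and processed signal. The processed signal is background-subtracted and not normalized between arrays. The authors also deposited a table of log2 values, which equalled log2 of the median signal minus the array's median within 5.0e-09. Flagged outlier spots were left out. Each array was scaled by subtracting its own 75th percentile of the log2 processed signals of non-control probes, and limma 3.58.1 (lmFit and eBayes, R 4.3.3 with the package data.table, version 1.17.8) was fitted to all 61325 probes: 16 arrays for TH, GC, CC and OO, 8 for CC-IVM against CC, and 20 for CC-IVM against the others, with p-values adjusted by Benjamini–Hochberg over all probes and called under 0.05. Where a group was not well above background on all 4 arrays, only a bound is given: the brighter group's mean against, per array of the dimmer group, the higher of the lowest detected signal and the probe's own. Permutation tests enumerated all 70 arrangements of 4 against 4. Python 3.11.15 with numpy 2.4.6, pandas 2.3.3, scipy 1.17.1 and matplotlib 3.10.9 was used for the rest. No array was a copy of another (the highest correlation between arrays was 0.9890). Over the 22550 genes the same fits were run on the median of each gene's spots.

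The members and gene lists were chosen with earlier results of these data known. Named list genes were up to 4 for each list and comparison, with the largest difference among genes past the threshold whose groups did not overlap, and further genes where a small count called for them. GNAS, ADRBK1 and the cell type markers were named after its values were seen. GRK2 and GRK3 were matched by their older symbols, ADRBK1 and ADRBK2. IGF1R, HSD3B2, PTGS2, TNFAIP6 and CEBPB were not matched by symbol. The files name no gene for 9779 probes, and RefSeq accessions gave a symbol for 734 of them. On simulated data for all 61325 probes with 200 changed by 2 on the log2 scale, the fit recovered 62.0% for GC against TH with 5 unchanged probes called, and 53.5% for CC-IVM against CC with 3. The number of arrays limits the precision. Alternatives tried were the methods' analysis of variance, other scalings, normexp, the deposited table, array weights, slide and replicate blocks, and leaving out each array. Averaging of identical spots, slide as a random block and the comparison of FSHR probe pairs within arrays were added after seeing the data. So was setting LHCGR no lower than the lowest detected level of each array.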

Additional observations from a re-analysis of the deposited data

Results flagged for a closer look

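Of 50 groups of 4 arrays (8 probes and 2 within-array values in 5 groups), 3 held an array far from its others by Dixon's criterion, where chance gives about 1 in 20 groups. FSHR-201 probe 2 was 1.66 in GC replicate 2, against 2.54 to 2.71 in the other GC arrays. LHCGR-201 probe 2 was −4.15 in the same array, against −7.35 to −7.02 in the others, which were under background. LHCGR-202 probe 1 was −7.06 in CC-IVM replicate 3, against −6.64 to −6.59, with no array detected.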

How the results depend on the processing

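The calls of FSHR between cell types and those of FSHR-201 after maturation held under every alternative run. None of these alternatives could part maturation from the slide of the CC-IVM arrays. Values that moved were these. On slide 1 alone LHCGR differed between GC and TH on 2 of 4 spots, and on slide 2 alone on 3. Within arrays, FSHR minus LHCGR between CC and GC passed with the deposited table (0.84) and with normexp (0.67, adjusted exact permutation p = 0.0286 each). Leaving out 1 array gave 0.60 to 2.02, past the threshold without GC replicate 1 (2.02). LHCGR was mostly under background in GC and CC, so none of these values is read as a receptor difference. With the brightest probe of each gene, GC minus TH was 10.86 and CC minus TH 12.36 (adjusted exact p = 0.0571), and CC-IVM minus CC reversed to 0.43. Leaving out 1 array gave 9.79 to 11.21 for GC minus TH and 11.37 to 12.31 for CC minus TH. CC-IVM minus CC was then −2.09 to −1.36. Without any one CC array the adjusted exact p was 0.0571 for CC minus TH and 0.0762 for CC-IVM minus CC. CC minus TH was 11.76 to 11.88 in those runs. Without any one TH array, the adjusted exact permutation p of CC minus TH stayed at 0.0381. That of CC-IVM minus CC stayed at 0.0381 without any one CC-IVM array. Both calls thus needed all of the CC arrays. Between groups under background, LHCGR in CC-IVM minus CC reversed on 3 spots: 0.51 and 0.59 with normexp (LHCGR-201 probe 1 and LHCGR-202 probe 2) and −0.01 with quantile normalization (LHCGR-201 probe 2). The cause was not tested.

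Replicate numbers were not taken as pairs: same-number correlations ranged from −0.31 to 0.60 (median 0.09), with 19 of 40 over 0.1. With the replicate block, FSHR kept 2 of 4 calls in CC-IVM minus CC and LHCGR 0 of 4, and FSHR-202 minus FSHR-201 was 2.35 (adjusted p = 0.015). That difference, added after seeing the data, was 2.13 to 2.59 over its alternatives. Slide as a fixed block could not be fitted for CC-IVM. With quantile normalization 46.5% of the probes called in CC-IVM minus CC were higher, against 67.1%.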
